A study of Mus musculus with 15 samples.

Results

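The BAF complex is a chromatin remodeller of the SWI/SNF family, which uses ATP to slide or evict nucleosomes. An ATPase, BRG1 or BRM, sits on a scaffold of core subunits, and ARID1A or ARID1B together with a DPF protein marks the canonical form of the complex. The genes followed here were its core and canonical subunits, namely Smarca4, Smarca2, Smarcb1, Smarcc1, Smarcc2, Smarce1, Actl6a, Arid1a, Arid1b and Dpf2. They were taken by name as a list of 10 genes, and all 10 were among the 13501 genes listed for overexpression and the 13669 listed for knockdown. A further table listed 30220 transcripts, of which 36 belonged to these genes.

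The study altered Smarcd1, another subunit of the complex, in 6DT1, a mouse mammary carcinoma cell line, and sequenced mRNA in 15 libraries, 3 from each of 5 lines. EV carried an empty vector. OE carried Smarcd1 cDNA with a C-terminal Myc tag behind a pol2 promoter, and both lines were selected in blasticidin. KD4 and KD6 carried lentiviral short hairpins against Smarcd1 and shScr a scrambled hairpin, all selected in puromycin. GEO gives EV and shScr the genotype wildtype. All 5 lines grew untreated as a monolayer on plastic and were collected 24 h after seeding at 70% confluence, with each replicate from another passage and day. Each group is 1 transduced line, so an effect of the construct and a drift of the line cannot be told apart. KD denotes KD4 and KD6 together, 6 libraries.

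Levels were gene CPM, reads scaled to the library total. Read depth is not known, so no counting error could be given, and OE and EV stood in another gene table than KD and shScr. Smarcd1 was 29.6 ± 2.37 CPM in EV, 65.7 ± 4.40 in OE, 15.3 ± 1.01 in shScr, 9.13 ± 0.121 in KD4 and 14.4 ± 1.03 in KD6 (SD, n = 3 each). The increase in OE and the decrease in KD4 passed the test (log2 change 1.12, adjusted p = 0.00355 and log2 change -0.69, adjusted p = 0.000873, limma), whereas the line labelled KD6 gave -0.09 (adjusted p = 0.701), so KD6 values are those of a line whose Smarcd1 mRNA was near that of shScr. Of 8 epithelial markers, Krt8, Krt18 and Krt19 were listed and Epcam, Cdh1, Krt7, Cldn4 and Cldn7 were not. All 10 proliferation genes were listed. Of markers of other cell types, Pdgfra and Cd68 (27.4 to 68.7 CPM) were listed in both tables. Pdgfra was 3.20 to 4.04 CPM in EV and OE, 2.54 to 3.55 in shScr and 4.42 to 7.75 in KD4 and KD6. Acta2 (0.854 to 2.19 CPM) and Kdr and Vwf (together 6.55 to 37.3 CPM) were listed in the OE and EV table alone. In bulk RNA, fewer cells of a type and less RNA per cell cannot be told apart.

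A feature of the libraries moved with several subunits. For each library, the median deviation of 780 long genes (longest coding transcript of 7000 bases or more) minus that of 1668 short genes (under 1500 bases) was taken on the log2 scale. This balance lay between -0.16 and -0.09 in EV and between 0.02 and 0.07 in OE. It was low in KD4 replicate 3 (-0.14) and KD6 replicate 1 (-0.15) and between 0.08 and 0.13 in KD4 replicate 1, KD6 replicates 2 and 3 and shScr replicates 1 and 3. EV replicate 1 also had a first principal component score of 23.7, while the other 5 libraries of its table scored between -11.3 and -1.07. The part of this balance and of that library in the results was not tested, apart from the fits named below that carry the balance as a covariate or leave libraries out.

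The subunits differed widely in mRNA level. Divided by the length of the longest coding transcript in GENCODE M1, the mean level over all 15 libraries was highest for Smarcc1 (ENSMUSG00000032481), a paired scaffold subunit also called BAF155, at 38.4 CPM per kb. Smarca4 (ENSMUSG00000032187), which encodes the ATPase BRG1, followed at 35.0 CPM per kb. The core subunit genes Smarcb1 (ENSMUSG00000000902), Smarce1 (ENSMUSG00000037935) and Actl6a (ENSMUSG00000027671) stood at 30.7, 27.8 and 24.5 CPM per kb. Arid1a (ENSMUSG00000007880), which encodes a DNA-binding ARID subunit, was at 20.3 CPM per kb, and Smarcc2 (ENSMUSG00000025369), also called BAF170, and Dpf2 (ENSMUSG00000024826), a PHD finger protein that reads histone tails, were at 14.5 and 13.8 CPM per kb. The alternative ARID gene Arid1b (ENSMUSG00000069729) reached 6.41 CPM per kb and Smarca2 (ENSMUSG00000024921), which encodes the alternative ATPase BRM, 1.56 CPM per kb. The longest coding transcript can be a minor one. That of Arid1b, ENSMUST00000115797, held between 1.40% (OE) and 2.85% (shScr) of the listed CPM in the line means. The order under other lengths was not taken. The order of the most abundant genes differed between lines, as Smarca4 was highest in EV (36.0 CPM per kb, against 34.9 for Smarcc1) and Smarcb1 in KD4 (33.6, against 32.6 for Smarcc1). In each pair of alternatives 1 gene was therefore the more abundant in all 5 lines, namely Smarca4, Smarcc1 and Arid1a.

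Across the 5 lines the highest line mean exceeded the lowest by 1.08-fold for Smarce1 to 1.32-fold for Smarcc1. Of the 4 pairs of neighbouring lines in the order of each gene, all 4 overlapped for 8 genes and 3 for Smarcb1 and Dpf2. The exceptions were EV below OE for Smarcb1 and shScr below OE for Dpf2. The libraries of the lowest and the highest line did not overlap for 5 genes, Smarca4, Smarcb1, Smarcc2, Actl6a and Arid1a. The share of all genes was taken for neither count. The lowest and highest lines were picked for each gene, which favours separation, so these counts are descriptions of the levels. Smarca4 was at 231, 229.9 and 229 CPM in EV, 234, 230.3 and 247 in OE, 199, 212 and 229 in shScr, 225, 202 and 187 in KD4 and 224, 239 and 224 in KD6. All KD4 libraries were below all EV and OE libraries, while KD4 overlapped shScr and KD6. Smarca2 was low in every library, between 7.18 CPM in KD6 replicate 1 and 11.2 CPM in KD4 replicate 2.

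**Figure D1:**
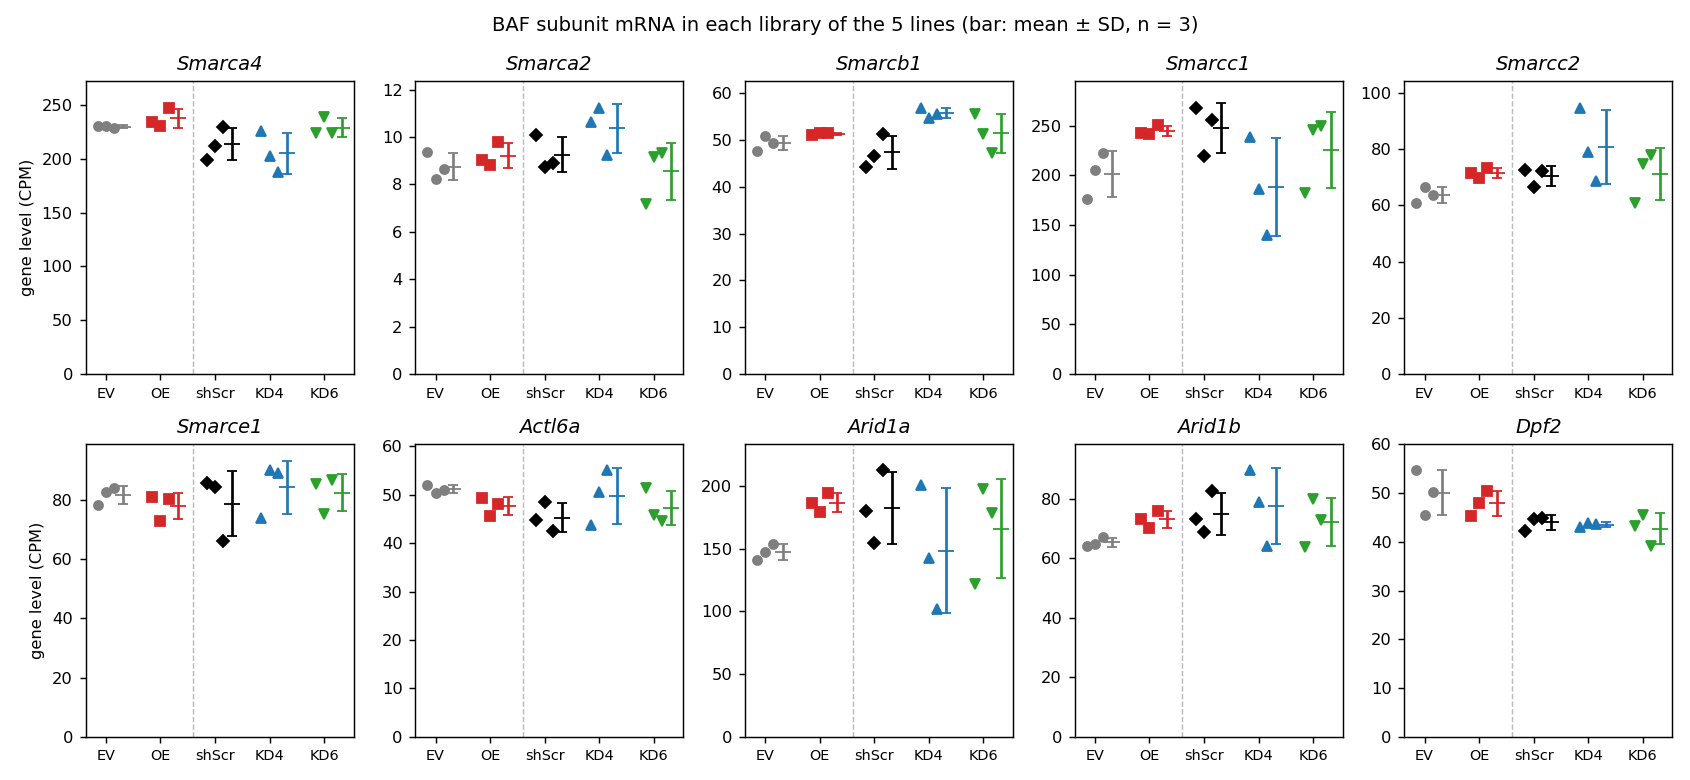
Gene level in CPM (vertical axis, from 0) of each of the 10 subunits in each of the 15 libraries, by line, with mean ± SD (n = 3) beside the points. The dashed line separates both gene tables. The widest scatter within a line is that of Arid1a, from 102 to 201 CPM in KD4, and Smarcc1, from 140.0 to 239 CPM in KD4.

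Within lines, Arid1a and Smarcc1 varied most. The pooled SD between libraries of a line was 0.29 on the log2(CPM + 1) scale for Arid1a, at the 97.9th percentile of 1026 genes of like level. For Smarcc1 it was 0.23, at the 95.8th percentile of 696 such genes. Smarcb1 (0.07), Smarca4 (0.08), Dpf2 (0.09) and Smarca2 (0.12) lay below the median of their peers. Arid1a was 201, 143 and 102 CPM in the KD4 replicates and 122, 198 and 178 in the KD6 replicates. Smarcc1 was 239, 186 and 140.0 CPM in KD4 and 182, 246 and 249.9 in KD6. The low libraries were the same for both genes, KD4 replicate 3 and KD6 replicate 1, which were those with a low balance of long against short genes. Between KD4 replicates 1 and 3 the log2 difference was 0.97 for Arid1a, at the 99.3rd percentile of all genes, and 0.77 for Smarcc1, at the 98.2nd, against a median of 0.11 for long genes and -0.13 for short genes. Between KD6 replicates 3 and 1 it was 0.54 for Arid1a and 0.46 for Smarcc1, against 0.13 for long and -0.15 for short genes. Actl6a, whose longest coding transcript has 1966 bases, differed the other way in these pairs (-0.33 and -0.20).

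**Figure D2:**
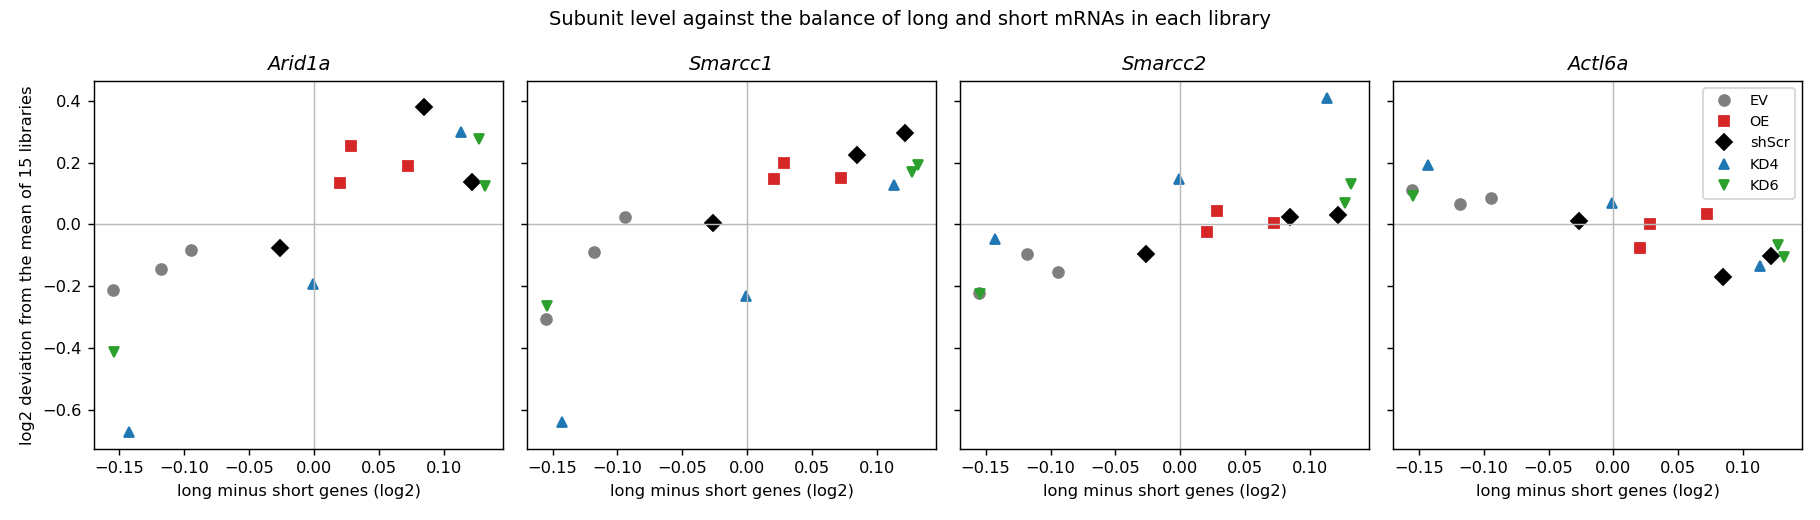
Log2 deviation of Arid1a, Smarcc1, Smarcc2 and Actl6a from their mean over 15 libraries (vertical axis) against the log2 difference between long and short genes in the same library (horizontal axis), 1 point per library, shaped and coloured by line. Libraries at the left, with a balance near -0.15, hold the lowest Arid1a and Smarcc1 points, and KD4 lies below the other lines for Smarcc1 and above them for Smarcc2 at like balance.

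The first comparison asked whether raising Smarcd1 moved the mRNA of its partner subunits. None of the 10 subunits passed an adjusted p of 0.05 in OE against EV (limma, adjusted over all genes), where 0.00741% of all genes passed, Smarcd1 alone. At an unadjusted p under 0.05 there were 4, Arid1a, Smarcc1, Smarcc2 and Arid1b, against 13% of all genes, and each had more mRNA in OE, against 7.68%. The libraries of both lines did not overlap for 6 of 10 subunits, against 20% of all genes. They were higher in OE for 5, against 11.3%, and lower for 1, against 8.71%. The median log2 change was 0.06 for the 10 subunits and 0.01 for all genes.

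Arid1a was 186, 179 and 195 CPM in OE and 141, 148 and 154 CPM in EV. Every OE library was above every EV library. The log2 change was 0.34 (SE 0.05, 95% interval 0.22 to 0.46), the 12th smallest p of 13501 genes, and its adjusted p of 0.157 did not pass. Leaving out EV replicate 1 gave 0.31. Smarcc1 was 242, 242 and 251 CPM in OE and 177, 205 and 222 in EV, again without overlap. Its log2 change was 0.29 (SE 0.08, adjusted p = 0.244, limma), and 0.20 without EV replicate 1, the lowest library.

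Smarcc2 was 71.4, 69.9 and 73.3 CPM in OE and 60.8, 66.4 and 63.8 in EV (log2 change 0.17, SE 0.05, adjusted p = 0.285, limma). Arid1b was 73.3, 70.2 and 75.7 CPM in OE and 64.2, 64.7 and 67.2 in EV (log2 change 0.16, SE 0.05, adjusted p = 0.291, limma). Smarcb1 was separated by a small margin, 51.1 to 51.5 CPM in OE and 47.7 to 50.8 in EV, with a log2 change of 0.06. Actl6a, an actin-related subunit, was the one with separated libraries and less mRNA in OE, 45.5 to 49.3 CPM against 50.3 to 52.0. Its log2 change of -0.10 had an adjusted p of 0.437. Smarca4, Smarca2, Smarce1 and Dpf2 overlapped between the lines, with log2 changes of 0.05, 0.07, -0.06 and -0.06.

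**Figure D3:**
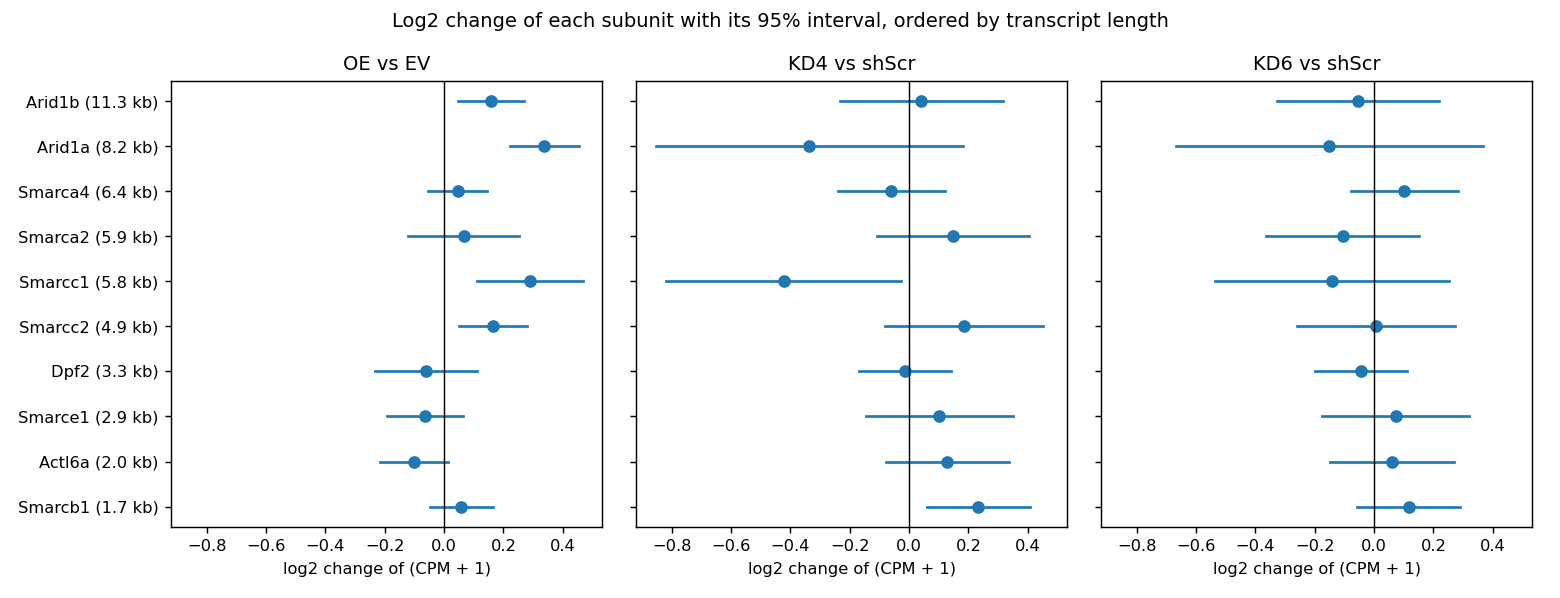
Log2 change of log2(CPM + 1) with its 95% interval (horizontal axis) for each subunit, ordered by the length of its longest coding transcript from shortest to longest, in OE against EV, KD4 against shScr and KD6 against shScr (n = 3 per line). Arid1a, Smarcc1, Smarcc2 and Arid1b have intervals above 0 in OE, and Smarcb1 above and Smarcc1 below 0 in KD4. No change passed the adjusted threshold.

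The OE against EV comparison had a tilt with transcript length. Over all genes with a length in the annotation (81.1% of those tested), the median log2 change ran from -0.09 for genes under 1.5 kb to 0.08 for those over 7 kb, of which 84.8% had a positive change. Arid1a and Arid1b are in the longest class, and their changes were 0.26 and 0.08 above its median. Smarcc1, in the class of 5 to 7 kb, was 0.23 above its class median, at the 96.9th percentile of that class. Smarcc2, in the class of 3 to 5 kb, was 0.15 above, at the 91.5th percentile. Smarca4 and Smarca2, of the same class as Smarcc1, lay -0.01 and 0.01 from its median. With the balance of long and short genes as a covariate, whose values did not overlap between OE and EV, the log2 change was 0.14 for Arid1a and -0.17 for Smarcc1 (adjusted p = 0.95 and 0.96, limma). The part of this tilt in the subunit values and the effect of Smarcd1 cannot be told apart in these libraries.

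**Figure D4:**
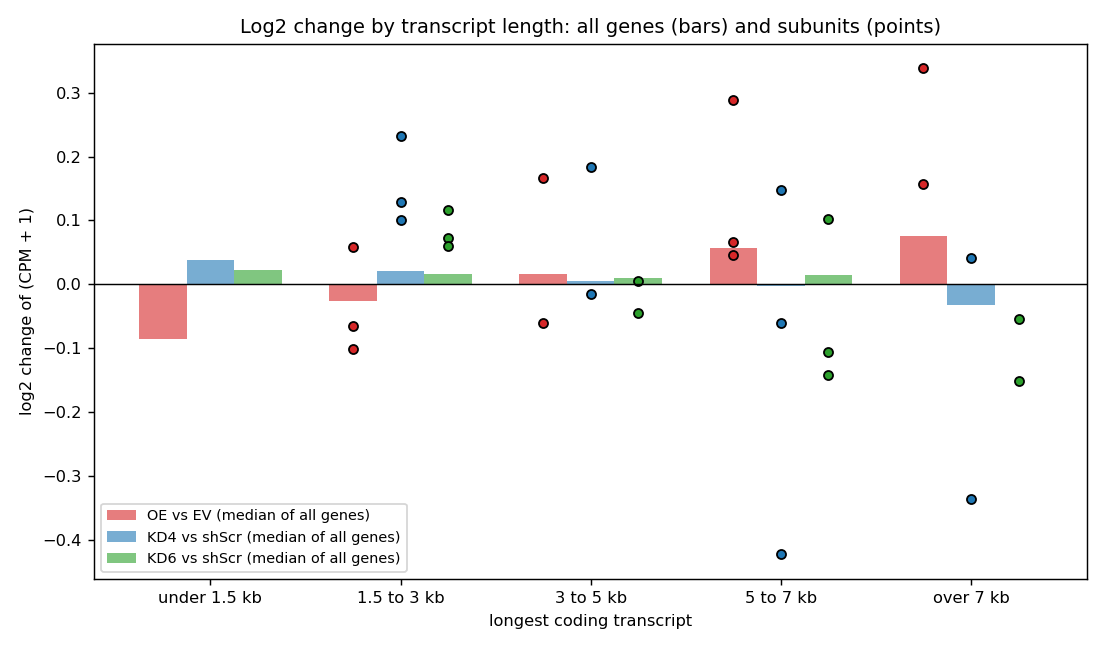
Median log2 change of all genes (bars, vertical axis) in 5 classes of longest coding transcript (horizontal axis) for OE against EV, KD4 against shScr and KD6 against shScr, with the 10 subunits as points in their class. The OE bars run from -0.09 to 0.08 with length, and the Arid1a point at 0.34 and the Smarcc1 points at 0.29 in OE and -0.42 in KD4 lie far from the bars of their class.

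The next comparison asked whether subunit mRNA moved when Smarcd1 was targeted. In KD against shScr, 0 of 10 subunits passed, against 2.66% of all genes (limma). At an unadjusted p under 0.05 there was 1, Smarcb1, against 17.3% of all genes, and 0 of 10 were separated between the groups, against 10.8%. Smarcb1, the core subunit that is lost in rhabdoid tumours, was 56.9, 54.8 and 55.5 CPM in KD4, 55.7, 51.3 and 47.3 in KD6 and 44.3, 46.5 and 51.3 in shScr. KD6 overlapped shScr and KD4 did not. The log2 change in KD was 0.17 (SE 0.07, adjusted p = 0.258, limma). The 95% interval ran from -0.68 to 0.20 for Arid1a and from -0.65 to 0.08 for Smarcc1, so these 2 were the least precisely measured, while for Dpf2 it ran from -0.17 to 0.11.

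The hairpins were also read 1 at a time, with the same shScr libraries in both comparisons. In KD4, where Smarcd1 fell, 0 of 10 subunits passed, against 9.58% of all genes (limma). Pdgfra, a fibroblast marker, was 7.12 to 7.75 CPM in KD4 and 2.54 to 3.55 in shScr, while the other 6 of 7 fibroblast markers were not listed, and its part in the KD4 values was not tested. Smarcb1 and Smarcc1 had an unadjusted p under 0.05, against 24.7% of all genes. Smarcb1 was the 1 subunit of 10 with separated libraries, against 29.5% of all genes, and its log2 change was 0.23 (SE 0.08, adjusted p = 0.0947). Smarcc1 was 239, 186 and 140.0 CPM in KD4 and 268, 219 and 256 CPM in shScr. Only KD4 replicate 1 reached the range of shScr. The log2 change was -0.42 (SE 0.18, adjusted p = 0.175, limma). Without KD4 replicate 1 it was -0.61 and passed (adjusted p = 0.046), and without KD4 replicate 3 it was -0.23 (adjusted p = 0.441).

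Smarcc2, the paralog that shares the scaffold position with Smarcc1, was 94.8, 78.9 and 68.8 CPM in KD4 and 72.7, 66.4 and 72.3 in shScr. KD4 replicates 1 and 2 were above all shScr libraries and replicate 3 was within their range. The log2 change was 0.18 (SE 0.12, adjusted p = 0.386, limma). It was 0.065 without KD4 replicate 1 and 0.29 without KD4 replicate 3. In a fit that carried the balance of long and short genes as a covariate, chosen after the data were seen, both paralogs passed, Smarcc1 at -0.28 (adjusted p = 0.0334) and Smarcc2 at 0.28 (adjusted p = 0.0141). Between the hairpin lines in the same fit Smarcc2 was lower in KD6 than in KD4 by a log2 difference of -0.24 (adjusted p = 0.0344). These are the only subunit calls that the covariate added. Over all 13669 genes, that fit called 1754 in KD4 against shScr, where 1310 were called without the covariate. In KD6 against KD4 it called 1075, where 671 were called without it.

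The ratio of both paralogs was also taken within each library. The log2 ratio of Smarcc1 to Smarcc2 was 1.33, 1.24 and 1.02 in the KD4 replicates. It was 1.88, 1.72 and 1.82 in shScr, 1.58, 1.72 and 1.68 in KD6, 1.54, 1.63 and 1.80 in EV and 1.76, 1.79 and 1.77 in OE. Each KD4 library was below each of the other 12, which is given as a description with no test, in a line whose single genes were separate from shScr for 29.5% of all genes. The mean was 1.20 ± 0.16 in KD4 and 1.81 ± 0.08 in shScr (SD, n = 3). Within KD4 the ratio was 1.33 at a balance of long and short genes of 0.11 and 1.02 at -0.14, and within EV 1.80 at -0.09 and 1.54 at -0.16. Within KD6 (1.58 at -0.15) and shScr (1.72 at -0.03) the lowest ratio was also in the library with the lowest balance. Within OE the library with the lowest balance had the highest ratio (1.79 at 0.02). The part of the balance in the ratio was not tested. Side by side with libraries of like balance, KD4 replicate 1 had less Smarcc1 (239 CPM) and more Smarcc2 (94.8 CPM) than KD6 replicates 2 and 3 (246 and 249.9, 74.7 and 77.9 CPM). KD4 replicate 3 had 140.0 CPM of Smarcc1 and 68.8 of Smarcc2, against 182 and 60.7 in KD6 replicate 1. These are single libraries picked by their balance and set side by side as a description, with no test.

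**Figure D5:**
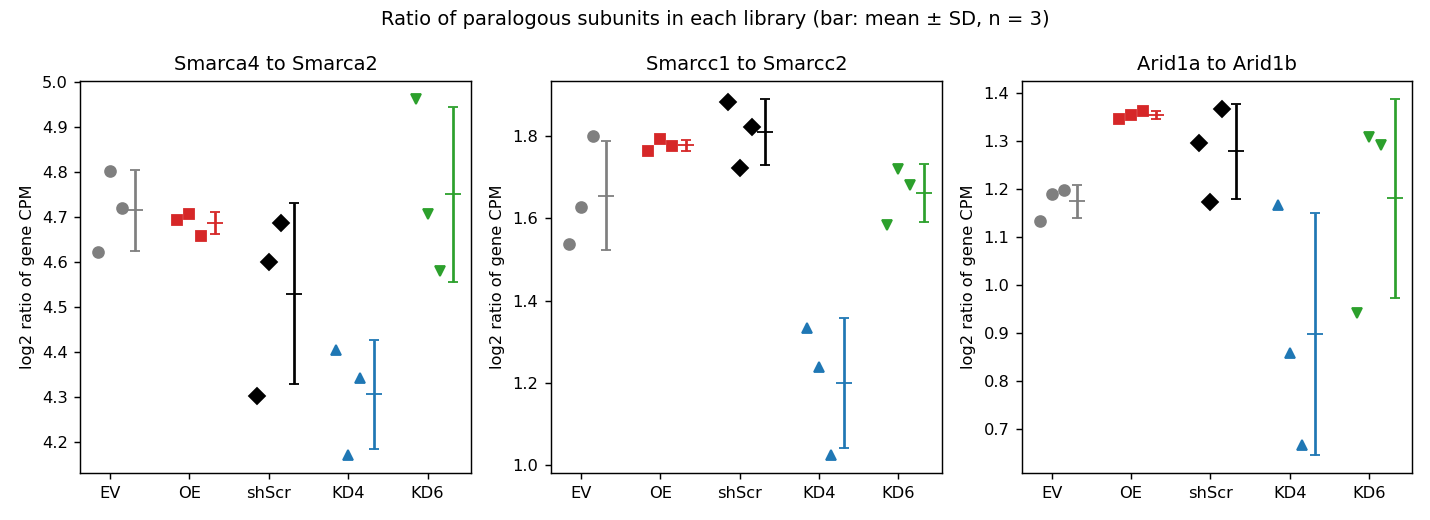
Log2 ratio of gene CPM between alternative subunits (vertical axes, which differ between panels and do not start at 0) in each library by line, with mean ± SD (n = 3). For Smarcc1 to Smarcc2 the KD4 libraries lie at 1.02 to 1.33 and all others at 1.54 to 1.88. For Smarca4 to Smarca2 KD4 overlaps shScr alone, and for Arid1a to Arid1b it overlaps EV and KD6.

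For the ARID pair, the log2 ratio of Arid1a to Arid1b was 1.17, 0.86 and 0.67 in KD4 and 1.30, 1.17 and 1.37 in shScr. KD4 was again below shScr, by a narrow margin in replicate 1. It was 1.13 to 1.20 in EV and 1.35 to 1.36 in OE, so that these lines were separated as well. In KD6 it was 0.94, 1.31 and 1.29, with the low value in the library with a low balance. The lowest KD4 value, 0.67, was also in a library with a low balance (-0.14). These ratios are given as a description with no test. Single genes were separated for 29.5% of all genes in KD4 against shScr and for 20% in OE against EV. For the ATPases the log2 ratio of Smarca4 to Smarca2 was 4.31 ± 0.12 in KD4 and 4.53 ± 0.20 in shScr, and these overlapped, as 4.17 to 4.40 met 4.30 to 4.69 through shScr replicate 1. KD4 was below all libraries of EV (4.62 to 4.80), OE (4.66 to 4.71) and KD6 (4.58 to 4.96).

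In KD6 against shScr, 0 of 10 subunits passed, against 2.91% of all genes, and 0 had an unadjusted p under 0.05, against 15.3% (limma). No subunit was separated between the lines, against 22.2% of all genes. The log2 changes lay between -0.15 for Arid1a and 0.12 for Smarcb1. The hairpin lines did not differ in any subunit at the adjusted threshold, where 4.91% of all genes did, and 0 subunits had an unadjusted p under 0.05, against 17.4%. Between KD4 and KD6 0 of 10 were separated, against 21.6% of all genes. The difference closest to it was Smarca2, with less mRNA in KD6 by a log2 difference of -0.25 (95% interval -0.51 to 0.0023, adjusted p = 0.291), and by -0.15 without KD6 replicate 1. KD4 replicates held 10.6, 11.2 and 9.23 CPM of Smarca2 and KD6 replicates 7.18, 9.16 and 9.35, which overlapped.

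Both control lines were compared in a fit of all 15 libraries on the sum of listed transcripts per gene. Dpf2 passed as 1 of 10 subunits, against 15.8% of the 13142 genes tested, and it was also the 1 with an unadjusted p under 0.05, against 33.2%. The libraries did not overlap for 4 of 10, against 38.9%, and these were Dpf2 and Actl6a, higher in EV, and Arid1a and Arid1b, lower in EV. The listed transcripts of Dpf2 summed to 45.3, 41.1 and 45.5 CPM in EV and 32.2, 37.8 and 33.3 in shScr. All EV libraries were above all shScr libraries. The log2 change was 0.35 (SE 0.09, adjusted p = 0.0168, limma). The call was lost without EV replicate 1 (0.32), EV replicate 3 (0.32), shScr replicate 1 (0.30) or shScr replicate 3 (0.32), with the balance as a covariate (0.21), and on gene CPM joined from both tables (0.18, adjusted p = 0.0931). The listed transcripts held 74.0% to 90.6% of the gene CPM of Dpf2, which was 50.1 ± 4.62 in EV and 44.0 ± 1.54 in shScr. Smarcd1 itself was higher in EV than in shScr in this fit (log2 change 0.90, adjusted p = 7.48e-05, limma), and Cd68 was 62.0 to 63.5 CPM in EV and 32.3 to 38.7 in shScr. The part of either in the Dpf2 value was not tested. The vector, the drug and the line differ together here and cannot be told apart.

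The last gene comparison asked whether the change in OE differed from that in KD. In the same fit, 0 of 10 subunits passed, against 1.9% of genes. The 2 with an unadjusted p under 0.05, against 18.7% of genes, were Arid1a (log2 difference 0.65, 95% interval 0.09 to 1.21, adjusted p = 0.204, limma) and Smarcc1 (0.58, 95% interval 0.12 to 1.03, adjusted p = 0.174). These are the 2 genes with the widest scatter within lines. No subunit passed in any fit that left out libraries, KD4 replicate 3 and KD6 replicate 1 together included.

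At the transcript level, each subunit gene had 2 to 6 listed transcripts and 1 that led. The leading transcript held 83.8% of the listed CPM of Smarca4, 80.8% of Actl6a and 77.9% of Smarce1 on average over libraries. It held 54.0% for Smarcc2, 56.7% for Arid1b, 56.9% for Arid1a, 57.3% for Dpf2, 59.3% for Smarcb1 and 68.2% for Smarcc1. For Smarca2 the listed transcripts held 22.2% to 64.3% of the gene CPM, so their sum is a poor measure of that gene.

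None of the 36 transcripts passed in OE against EV, where 0% of all transcripts did (limma). At an unadjusted p under 0.05 there were 10, against 9.65% of all transcripts, and the lines did not overlap for 10, against 17.5%. The leading transcript of Arid1a, ENSMUST00000145664, was 99.4, 84.7 and 98.6 CPM in OE and 46.2, 68.8 and 68.2 in EV, with no overlap. Its log2 change was 0.64 (SE 0.16, adjusted p = 0.441), against 0.34 for the gene. Without EV replicate 1, its lowest library, the change was 0.45, against 0.31 for the gene. The leading transcript of Smarcc1, ENSMUST00000088716, changed by 0.24 (SE 0.09, adjusted p = 0.485) on the log2 scale. For Smarca2, ENSMUST00000207054 was 1.09, 0.78 and 1.46 CPM in OE and 3.97, 1.89 and 2.03 in EV, while the other listed transcript was 2.63, 1.92 and 2.24 in OE and 2.05, 0.67 and 1.22 in EV. These levels are near the lower limit of the table.

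In the hairpin lines, 0 of 36 transcripts passed in KD, KD4 or KD6 against shScr, where 0.295%, 1.14% and 0.142% of all transcripts did. At an unadjusted p under 0.05 there were 1, 3 and 1, against 12%, 14.9% and 10.2% (limma). The groups did not overlap for 1, 4 and 3 transcripts, against 7.34%, 21.2% and 17%. The leading Smarcb1 transcript, ENSMUST00000121304, was 35.2, 32.1 and 38.4 CPM in KD4 and 22.4, 26.2 and 30.7 in shScr. KD4 lay above shScr in all libraries, with a log2 change of 0.41 (SE 0.14, adjusted p = 0.229). In KD6 it was 31.1, 28.6 and 22.9 CPM, which overlapped. The leading Smarcc2 transcript, ENSMUST00000105235, was 36.0, 41.4 and 41.2 CPM in KD4 and 35.7, 38.6 and 32.4 in shScr, with a log2 change of 0.15 (SE 0.09, adjusted p = 0.501).

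Whether the transcripts of a gene moved unequally was asked with diffSplice of limma. For 0 of 10 subunits did usage differ in OE against EV or in KD against shScr, where 1.09% and 1.06% of genes passed. At an unadjusted p under 0.05 there were 2 in OE, Smarca2 and Smarce1, against 15.3% of genes, and 0 in KD, against 12.1%. The smallest adjusted p was that of Smarca2 in OE (0.108), and the F test and a test of log ratios also passed none of the 10.

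Of 21 other subunits of SWI/SNF complexes, 15 were listed in all tables. In OE against EV 1 of the 15 passed, against 0.00741% of all genes (limma). It was Smarcd1, the gene that OE carried as cDNA, which rose, and 0 fell. An unadjusted p under 0.05 was reached by 2 of the 15, against 13% of all genes (limma). Separated levels were found for 4 of the 15, against 20% of all genes. Of these, 2 were higher in OE, against 11.3%, and 2 lower, against 8.71%. In KD and in KD6 against shScr 0 of 15 passed, against 2.66% and 2.91% of all genes, with 5 and 3 at an unadjusted p under 0.05, against 17.3% and 15.3% (limma). In KD4 3 of 15 passed, against 9.58% of all genes, with 8 at an unadjusted p under 0.05, against 24.7% (limma). The libraries did not overlap for 9 of 15 in KD4, against 29.5% of all genes. In KD this held for 2, against 10.8%, and in KD6 for 3, against 22.2%. In KD4, Bcl7c, a BAF accessory subunit, and Brd9, a bromodomain protein of the non-canonical complex, rose by 0.31 each on the log2 scale (adjusted p = 0.0338 and 0.0286, limma). Smarcd1, the target of the hairpin, fell. Between the hairpin lines 2 of 15 passed, against 4.91% of all genes. Arid2, the ARID subunit of the PBAF complex, was lower in KD6 than in KD4 (log2 difference -0.37, adjusted p = 0.0348, limma) and Smarcd1 was higher (0.60, adjusted p = 0.00292). In EV against shScr 3 of 15 passed, against 15.8% of genes, namely Smarcd1, Bcl7c (0.32, adjusted p = 0.0315) and Ss18 (0.22, adjusted p = 0.0388), all higher in EV. Between the OE and KD effects 1 of 15 differed, Smarcd1, against 1.9% of genes. The 10 core and canonical subunits had medians of 0.06 in OE and 0.07 in KD4, and the 15 others -0.01 and 0.14.

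Genes with the profile most like that of 4 subunits were sought among 9912 genes by the mean absolute distance between line means of log2(CPM + 1), each centred on the gene's own mean, over 5 lines. CPM was here the sum of the listed transcripts of each gene. Nearest to Smarca4 were Hsd17b11 (distance 0.0063) and Elp3 (0.0088). Nearest to the transcript sum of Smarca2 were Filip1 (0.023) and Ly6a (0.024). That sum is a poor measure of Smarca2, as its line mean was lowest in KD4 (2.41 CPM), where the mean gene CPM was highest (10.4). Ndufaf1 (0.030) and Spen (0.033) were nearest to Arid1a and Herpud2 (0.0090) and Fam13b (0.012) to Arid1b. With 5 points and shared libraries, these are descriptions of like levels.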

How the data were processed

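The authors deposited CPM for genes (OE and EV in one table, KD and shScr in another) and for transcripts (all 15 libraries). Every feature in these tables reached a geometric mean of 1.00 CPM. The submitters' processing notes list STAR 2.7.8a and mm39, whereas TopHat and mm9 stand in the study's methods, so no coordinate is given. The values held no whole-read steps, so reads were not recovered and depth is unknown. The transcript table held 15 further columns that match no sample used here, and these were not used. Symbols were matched for 88.1% and 87.3% of gene identifiers.

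Log2(CPM + 1) was fitted with limma 3.58.1 (intensity trend) in R 4.3.3 over all features of a table, with Benjamini-Hochberg adjustment and a threshold of 0.05. OE was compared with EV and KD (6) with shScr (3). Each hairpin line was set against shScr in a model of 3 groups. EV against shScr, and the OE effect minus the KD effect, came from transcript sums in a fit of 5 groups, since that table holds all lines. Lengths came from GENCODE M1 on NCBIM37 and covered 81.1% and 80.1% of the genes. Tests were checked on simulated data, where diffSplice made more false calls than its threshold allows. The libraries of a line are from separate passages, so p values measure the spread between passages within lines, pooled over the lines of a fit. In KD against shScr that spread also holds the difference between KD4 and KD6, which form 1 group.

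The 10 subunits, the list of other subunits and the markers were chosen with earlier results of these data known. Named were the 10 subunits, Smarcd1, the leading transcript of each subunit, other subunits that passed, and the 2 genes most like Smarca4, Smarca2, Arid1a and Arid1b. The second Smarca2 transcript was named after its values were seen. Alternatives were a pseudocount of 0.1, quantile and median-of-ratios scaling, a minimum mean of 5 CPM, the replicate block, and leaving out each library. The covariate for long and short genes, the removal of KD4 replicate 3 with KD6 replicate 1, the joined gene CPM and the log ratio test of usage were added after the data were seen. Plots were made in Python 3.11.15 (matplotlib 3.10.9).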

Additional observations from a re-analysis of the deposited data

How the results depend on the processing

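Of 206 counts of calls under an alternative, 196 equalled the main count, which was 0 except in EV against shScr. Of 1228 single subunit changes, 1151 kept their sign and their side of the threshold, as did 509 of 536 leading-transcript changes. The count of called subunits was 0 to 1 in KD4 against shScr and 0 to 2 in EV against shScr over fits that left out libraries. In the latter 2 passed without KD4 replicate 3 and KD6 replicate 1, when Arid1a joined Dpf2. The cause of that added call was not tested. With the balance of long and short genes as a covariate the count was 2 in KD4 against shScr, 1 in KD6 against KD4 and 0 in EV against shScr, and with the joined gene CPM it was 0 in EV against shScr. Counts of called subunits in the other comparisons, of their transcripts and of unequal usage stayed at 0 under the alternatives run, and the covariate was not run on transcripts.

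Replicate numbers did not pair the libraries: the correlation of deviations across genes between same-numbered libraries was -0.15, 0.26 and 0.05 for OE and EV and at or below 0.06 for the hairpin lines, and own-number partners correlated best in 2 of 6 libraries for OE and EV, 1 of 6 for KD4 and shScr, 0 of 6 for KD6 and shScr and 0 of 6 for both hairpin lines. With the replicate block, called subunits numbered 0 in OE against EV and 0 in KD against shScr, and all called genes numbered 1 and 114, against 1 and 364 without it. In KD4, KD6, KD6 against KD4, EV against shScr and OE minus KD, all called genes were 626, 179, 349, 990 and 43 with the block and 1310, 398, 671, 2078 and 250 without it. Called transcripts were 1, 26 and 0 with the block in KD, KD4 and KD6 and 89, 343 and 43 without it, and genes with unequal usage were 19 in OE and 22 in KD, against 77 and 75. It changed no other call of a subunit.

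Leaving out libraries moved all called genes to 0 to 1 in OE against EV, 92 to 397 in KD, 641 to 1309 in KD4, 151 to 419 in KD6, 298 to 611 in KD6 against KD4, 971 to 2670 in EV against shScr and 91 to 411 in OE minus KD. The covariate gave 0, 411, 1754, 635, 1075, 691 and 80 in the same order, quantile normalization gave 3 in OE, the joined gene CPM gave 388 in OE minus KD, and averaging KD4 and KD6 as separate lines gave 847 genes and 184 transcripts in KD. With a minimum mean of 5 CPM, 79 transcripts were called in KD6 and usage differed in 5 genes in OE and 16 in KD.

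Leaving out libraries turned the sign of some gene changes, none of them called. In OE against EV this held for Dpf2 (-0.13 to 0.0030). In KD against shScr this held for Smarca4 (-0.028 to 0.073), Smarca2 (-0.027 to 0.11), Smarce1 (-0.031 to 0.15) and Arid1b (-0.064 to 0.10). In KD4 against shScr this held for Smarca4 (-0.13 to 0.0027), Smarce1 (-0.017 to 0.19), Arid1b (-0.068 to 0.17) and Dpf2 (-0.043 to 0.0017). In KD6 against shScr this held for Smarca2 (-0.17 to 0.0023), Smarcc1 (-0.23 to 0.0059), Smarcc2 (-0.064 to 0.11), Smarce1 (-0.046 to 0.14), Arid1a (-0.29 to 0.054), Arid1b (-0.13 to 0.032) and Dpf2 (-0.091 to 0.013). In KD6 against KD4 this held for Smarce1 (-0.12 to 0.034), Actl6a (-0.16 to 0.0060), Arid1a (-0.057 to 0.43), Arid1b (-0.22 to 0.014) and Dpf2 (-0.077 to 0.028). In EV against shScr this held for Smarca2 (-0.27 to 0.22) and Smarce1 (-0.055 to 0.13). In OE minus KD this held for Smarca4 (-0.031 to 0.078), Smarca2 (-0.088 to 0.40) and Smarcc2 (-0.037 to 0.13). With the balance of long and short genes as a covariate the sign turned for Smarcb1 (-0.0089), Smarcc1 (-0.17) and Dpf2 (0.31) in OE against EV, and Arid1b (0.047) in KD against shScr, and Smarcc1 (0.11), Smarcc2 (0.10), Smarce1 (-0.014), Arid1a (0.072) and Arid1b (0.0090) in EV against shScr, and Smarca4 (-0.046), Smarcc2 (-0.21) and Arid1b (-0.036) in OE minus KD. With quantile normalization the sign turned for Smarca2 (-0.0018) in KD against shScr, and Smarcc2 (-0.016) in KD6 against shScr, and Smarcb1 (-0.0090) in EV against shScr. With the joined gene CPM the sign turned for Smarca2 (-0.070) in EV against shScr.

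Leaving out libraries turned the sign of some leading-transcript changes, none of them called. In KD against shScr this held for Smarca4 (-0.051 to 0.057), Smarce1 (-0.040 to 0.17), Dpf2 (-0.080 to 0.11) and Smarca2 (-0.054 to 0.20). In KD4 against shScr this held for Smarce1 (-0.035 to 0.18), Arid1b (-0.19 to 0.0058) and Smarca2 (-0.14 to 0.079). In KD6 against shScr this held for Smarce1 (-0.045 to 0.17), Smarcb1 (-0.051 to 0.18), Dpf2 (-0.19 to 0.046) and Smarca2 (-0.13 to 0.51). With quantile normalization the sign turned for Smarca4 (-0.023) and Dpf2 (-0.0011) in KD against shScr, and Smarca2 (0.042) in KD4 against shScr. With median-of-ratios scaling the sign turned for Smarca2 (0.0068) in KD4 against shScr. The cause of these shifts was not tested.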
